A study of Mus musculus with 8 samples.

Results

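The genes examined here are 10 that encode apolipoproteins or the lipid transfer protein that loads them: Apob, Apoa1, Apoa2, Apoa4, Apoc1, Apoc3, Apoe, Apoh, Apom and Mttp. They were taken by symbol from the 54838 genes counted by RNA-seq in each of 8 libraries of cultured mouse hepatocellular carcinoma cells. The library labelled 3H3P came from the 3H3 line, which was started from a liver tumour of an MC4R-deficient C57BL/6 mouse fed a high-fat diet and has mutant Hras, after knockout of Trp53 by CRISPR/Cas9. The other 7 libraries are labelled 3H3PM. They share the mutant Hras and the Trp53 knockout, carry ectopic MYC in addition, and come from subclones 1, 2, 3, 6, 7, 8 and 9, which were isolated from tumours that those cells formed in nude mice, hosts that lack a thymus. There was 1 library per subclone and 1 of 3H3P, so MYC, growth in mice and isolation of the subclones cannot be told apart.

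Lipoproteins carry fat and cholesterol through plasma in particles with a surface of phospholipid and apolipoproteins. In hepatocytes and enterocytes the microsomal triglyceride transfer protein, encoded by Mttp, lipidates apolipoprotein B as it enters the endoplasmic reticulum, and each very-low-density particle or chylomicron keeps its apolipoprotein B for life. The A, C and E apolipoproteins are smaller and exchange between particles, where they activate or inhibit lipases and bind receptors. The liver makes most of the plasma pool of these proteins, whereas apolipoprotein E is also made by macrophages, astrocytes and other cells.

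The upstream sequences of Apob and Apoe are shown because these were the members with the widest differences between libraries. They are the bases before the RefSeq transcription start in GRCm38.p6, 5′ to 3′ on the strand of the gene. The Apob stretch is chr12:7977427-7977647 on the plus strand and stops where the GENCODE transcripts begin. The Apoe stretch is chr7:19699189-19699438 on the minus strand. Capitals mark matches to the motifs searched.

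Apob: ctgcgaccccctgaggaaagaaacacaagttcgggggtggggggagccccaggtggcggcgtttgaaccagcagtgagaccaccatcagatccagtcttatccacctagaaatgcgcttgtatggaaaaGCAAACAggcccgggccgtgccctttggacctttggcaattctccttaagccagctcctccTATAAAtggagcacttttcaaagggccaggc

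Apoe: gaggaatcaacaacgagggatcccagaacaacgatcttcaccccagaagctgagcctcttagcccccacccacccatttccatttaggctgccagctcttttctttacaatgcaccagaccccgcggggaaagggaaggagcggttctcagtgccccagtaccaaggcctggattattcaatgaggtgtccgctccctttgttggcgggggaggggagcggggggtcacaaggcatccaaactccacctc

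Depth was similar across the series, with 12838521 to 17987068 expected counts per library. As a check for a library deposited more than once, counts were compared pair by pair. Chi-square per degree of freedom was at least 12.6 over the 21 subclone pairs and at least 166 between the library labelled 3H3P and a subclone, which includes any variation between cultures. Trp53 had a TMM-scaled CPM (counts relative to library size) of 212 in the library labelled 3H3P, against 46.7 to 66.6 in the subclones. Mouse Myc was at 85.2 CPM against 3.57 to 11.6 CPM, so the mouse gene's counts do not show the ectopic MYC, for which no species is given. The hepatocyte label was only partly borne out by defining markers. Of 20 hepatocyte marker genes 9 passed the filter on low counts and were tested, and 3 were called lower in the subclones. Alb, encoding albumin, had 59 counts in the library labelled 3H3P, while Cps1, Cyp3a11, Cyp2e1 and Hpd had 0 counts in every library. Summed over the 20 markers, TPM (a level corrected for transcript length and library size) was 1727 in the library labelled 3H3P, against 170 to 414 across subclones. In the library labelled 3H3P that sum came mainly from Trf and Ass1. Of 8 cholangiocyte markers 7 were tested and 3 were called lower, with a summed TPM of 3258 against 679 to 1721. Most of that sum came from Spp1, which was not called, at 2596 TPM in the library labelled 3H3P against 443 to 1635 TPM across subclones. Epcam had 0 counts in every library. Over all tested genes 11.8% were called lower. The 8 enterocyte markers summed to 0.84 TPM against 8.58 to 121, nearly all of it from Anpep, while Alpi and Sis had 0 counts everywhere. The 8 endothelial and 8 lymphocyte markers reached at most 0.44 and 0.18 TPM in any library.

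Most of the 10 genes were close to silent in all 8 libraries, and 3 were expressed. Apob was abundant in the library labelled 3H3P and nearly absent from the subclones. Apoe was low in the library labelled 3H3P and higher in all 7 subclones. Mttp was at a similar low level in every library. These were the 3 members that passed the filter on low counts, and 7 did not pass. A filter of this kind keeps a gene that is high in a single library, so the members that passed are not a fair sample of the 10. Fewer cells expressing a gene and less RNA per cell cannot be told apart in such bulk libraries.

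**Figure D1:**
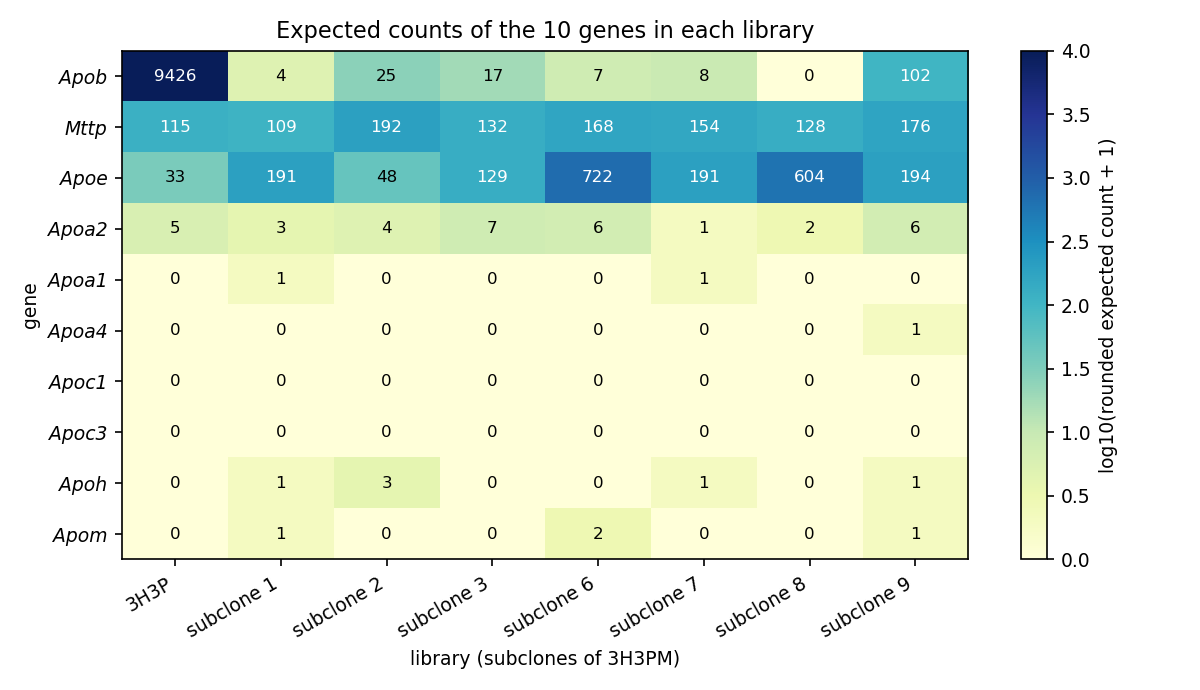
Rounded expected counts of the 10 genes (rows) in the library labelled 3H3P and the 7 subclones (columns), with colour on a log10 scale. Apob stands at 9426 counts in the library labelled 3H3P and at 0 to 102 in the subclones, and 6 of the 10 genes have 0 counts in the library labelled 3H3P.

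Apob (ENSMUSG00000020609.14, chromosome 12, 7977648 to 8016835, GRCm38) encodes the structural protein of very-low-density and low-density lipoproteins. It had 9426 counts in the library labelled 3H3P, against 4, 25, 17, 7, 8, 0 and 102 counts in subclones 1, 2, 3, 6, 7, 8 and 9. As CPM this was 586 against 0.237, 1.60, 0.934, 0.464, 0.611, 0 and 7.06 in the same order. The groups did not overlap, and within the subclones number 9 stood highest and number 8 had no count.

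The log2 change of Apob was −8.56 with an SE of 1.03, and it was lower in 7 of 7 subclones (adjusted p = 0.000968 by edgeR's quasi-likelihood test). Pooled over the subclones the level was 385-fold lower, with a 95% exact interval of 329 to 452 that covers counting error only and not the spread between subclones, of which number 9 held 102 of the 163 pooled counts. Only 74 of the 14634 genes tested had a more negative fitted change. Apob was the 1 member called in either direction, where edgeR called 19.1% of all tested genes and called 11.8% lower. The log2 change was −9.79 without subclone 9, and over all alternatives the adjusted p ran from 3.34e-08 to 0.00416.

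Mttp (ENSMUSG00000028158.14, chromosome 3, 138089854 to 138144968) encodes the transfer protein on which apolipoprotein B depends for lipid loading. It had 115 counts in the library labelled 3H3P, or 7.16 CPM. In subclones 1, 2, 3, 6, 7, 8 and 9 it was at 6.45, 12.3, 7.25, 11.1, 11.8, 9.49 and 12.2 CPM. The library labelled 3H3P lay inside the range of the subclones, below 6 of them and above subclone 1. The log2 change was 0.49 (SE 0.41) and did not pass edgeR's test (adjusted p = 0.437). Thus the CPM of the transfer protein gene stayed within 1.90-fold over the subclones, while that of Apob ranged from 0 to 7.06.

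Apoe (ENSMUSG00000002985.16, chromosome 7, 19696109 to 19699188) encodes a ligand of the low-density lipoprotein receptor family. It was at 2.05 CPM (33 counts) in the library labelled 3H3P. In subclones 1, 2, 3, 6, 7, 8 and 9 it was at 11.3, 3.07, 7.08, 47.8, 14.6, 44.8 and 13.4 CPM. Every subclone was above the library labelled 3H3P, subclones 6 and 8 far above the rest, and subclone 2 closest to it.

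The mean of Apoe over the subclones was 20.3 ± 18.2 CPM (SD, n = 7), a log2 change of 3.30 (SE 1.57). This did not pass edgeR's test (adjusted p = 0.172), whereas DESeq2 called it higher (adjusted p = 0.0174), and over all alternatives the adjusted p ran from 0.0174 to 0.401. By edgeR 0 members were called higher, where 7.33% of all tested genes were. At an unadjusted p under 0.05 edgeR likewise called 0 members higher, where 15.3% of all tested genes were, and the unadjusted p of Apoe was 0.0636. DESeq2 called 1 member higher, Apoe, where it called 11.4% of all genes higher, and 1 lower, Apob, where it called 11.9% lower and 23.3% in either direction. The library labelled 3H3P lay outside the range of the subclones for 2 of the 3 tested members and for 57.4% of all tested genes. It lay below every subclone for Apoe and for 27.1% of all tested genes, and above every subclone for Apob and for 30.4%.

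**Figure D2:**
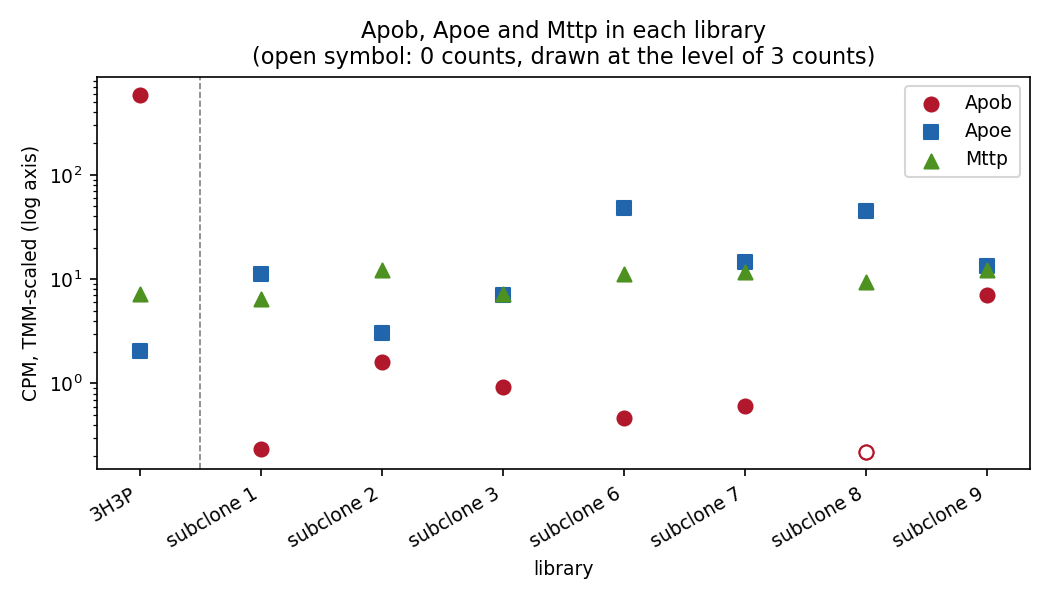
TMM-scaled CPM (log axis) of Apob, Apoe and Mttp in each library, 1 point per gene and library. Apob drops from 586 to at most 7.06 CPM, Apoe lies at 2.05 CPM in the library labelled 3H3P, below the 3.07 to 47.8 CPM of the subclones, and Mttp stays between 6.45 and 12.3 CPM.

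On the TPM scale, which allows levels to be compared between genes, the sum over the 10 genes changed its composition. In the library labelled 3H3P it was 106 TPM, of which Apob made up 92.1%, Apoe 3.21% and Mttp 2.84%. In the subclones the sum was 12.9 to 92.2 TPM. Apoe was the largest share in 6 of the 7 subclones, from 68.3% in subclone 3 to 94.0% in subclone 8. In subclone 2 Mttp had 44.1% and Apoe 39.3%. The Apob share was 0% to 4.14%, highest in subclone 9.

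**Figure D3:**
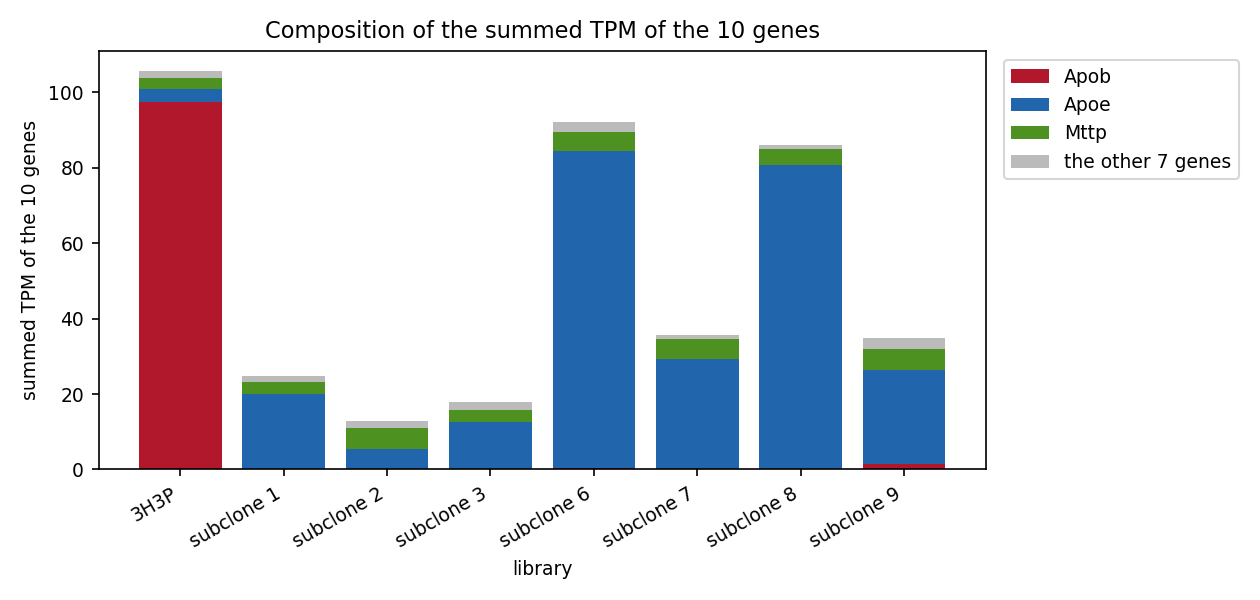
Summed TPM of the 10 genes in each library (bar height), divided into Apob, Apoe, Mttp and the other 7 genes. The bar of the library labelled 3H3P is 92.1% Apob, and subclones 6 and 8 reach 92.2 and 85.9 TPM almost wholly through Apoe.

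The TPM of Apob rests on how RSEM divided reads among transcripts of unequal length. GENCODE lists Apob transcripts of 13934, 13369, 2174 and 1118 bases, and the deposited abundance-weighted length was 8447 bases in the library labelled 3H3P. In subclone 6 that length was 1623 bases, so 7 counts gave 0.47 TPM, whereas 25 counts in subclone 2 gave 0.23 TPM at 10332 bases. The shares of summed TPM above carry this uncertainty, whereas CPM, used for the fold change and test of Apob, does not depend on the length.

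The other exchangeable apolipoprotein genes gave few or no reads. Apoa2, for the second protein of high-density lipoproteins, had 5 counts in the library labelled 3H3P, against 3, 4, 7, 6, 1, 2 and 6 in subclones 1, 2, 3, 6, 7, 8 and 9. Those ranges overlap, and in TPM it was at 1.93 against 0.53 to 2.50. Without a filter on low counts Apoa2 had a log2 change of −0.18 (SE 0.98, edgeR adjusted p = 0.912). Apoa1, for the main high-density lipoprotein protein and activator of cholesterol esterification, had 1 count each in subclones 1 and 7 and 0 in the other 6 libraries. Apoa4, an apolipoprotein of intestinal particles and of liver, had 1 count in all, in subclone 9. Apoc1 and Apoc3, which encode inhibitors of lipase action and particle uptake, had 0 counts in all 8 libraries. A count of 0 in a library allows up to 3 counts, which is 0.165 to 0.229 CPM at these depths and covers counting error only.

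Apoh encodes beta-2-glycoprotein I, a phospholipid-binding plasma protein, and Apom a lipocalin that carries sphingosine-1-phosphate on high-density lipoproteins. Both had 0 counts in the library labelled 3H3P. Apoh had 1, 3, 0, 0, 1, 0 and 1 counts and Apom 1, 0, 0, 2, 0, 0 and 1 counts in subclones 1, 2, 3, 6, 7, 8 and 9. At this depth a difference between groups was not detectable for either. In the fit without a filter, edgeR's adjusted p was 0.509 for Apoh and 0.579 for Apom.

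Of the gene clusters that hold these members, the one on chromosome 7 contains Apoe, Apoc1, Apoc4 and Apoc2. Apoc2 had 1 count in all, in the library labelled 3H3P, and Apoc4 had 9, all in subclones. Beyond the cluster, Tomm40, the mitochondrial import gene that lies next to Apoe, stood at 149 CPM in the library labelled 3H3P, with a subclone mean of 183 ± 12.4 CPM (SD, n = 7, edgeR adjusted p = 0.213). Clptm1 and Relb, on the other side, had log2 changes of −0.70 and −0.81 (adjusted p = 0.00751 and 0.0373), and Nectin2 was at 162 against 45.5 ± 32.2 CPM (adjusted p = 0.106). The expressed coding genes outside the cluster but within 50 kb of it thus had log2 changes of −1.84 to 0.29, against 3.30 for Apoe.

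The cluster on chromosome 9 contains Apoa1, Apoc3, Apoa4 and Apoa5, with 4 counts in total over the 8 libraries. Sik3, Zpr1 and Bud13, which flank it, were expressed at 73.4, 41.7 and 12.5 CPM in the library labelled 3H3P, with subclone means of 91.1 ± 10.4, 49.3 ± 9.53 and 23.0 ± 2.58 CPM (SD, n = 7). Of these Bud13 rose by 0.88 on the log2 scale (edgeR adjusted p = 0.0364). Among coding genes within 50 kb, those with few or no reads were the apolipoprotein genes and 4931429L15Rik, which had 0 counts in every library.

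Of the 3 expressed members, Apob and Apoe varied more among the subclones than Mttp. The SD of log2 CPM over the 7 subclones was 1.81 for Apob, against a median of 0.64 for the 1706 tested genes within 2-fold of its mean CPM. It was 1.39 for Apoe, against a median of 0.28 over 3756 such genes, and its highest subclone was 15.6-fold above its lowest. For Mttp the SD was 0.37, against a median of 0.36 over 2555 genes. Likeness of pattern over the 7 subclones was measured by Pearson's r of log2 CPM among 1099 genes with a mean of at least 10 CPM and an SD of at least 0.5, as a description without a test. The closest to Apoe were Dennd4a, Pde1a and Ppp1r12b (r = 0.988, 0.976 and 0.971), to Apob Plxna2, Ccnd1 and Hipk2 (r = 0.903, 0.881 and 0.874), and to Mttp Pear1, Tns1 and Mcub (r = 0.923, 0.904 and 0.893). The best 3 of 1099 genes over 7 subclones can reach a high r through selection alone, so these values do not show a link.

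Subclones 6 and 8, where Apoe was highest, also had the highest counts of Il11, the cytokine gene named in the series title, at 15.2 and 31.1 CPM against 0.831 to 3.51 CPM in the other subclones. Il11 was set beside Apoe after its values were seen. Because apolipoprotein E is also a macrophage product, macrophage markers were read in the same libraries. Of 14 markers 10 had 0 counts in the library labelled 3H3P, while Marco, Clec4f and Vsig4 were at 0 in every library. Their summed TPM was 9.58 in the library labelled 3H3P, against 6.20 to 18.4 across subclones. It was 13.7 and 18.4 in subclones 6 and 8 and at most 12.2 in the others. The leukocyte gene Ptprc, encoding CD45, had 3 counts over all subclones, and Adgre1 had 4. The 4 markers tested included 1 called lower, Mrc1, with 84 counts in the library labelled 3H3P against 5 over all subclones. The other 3 were not called: Csf1r had 185 against 1271 counts, Cd68 44 against 332 and Lyz2 8 against 122. Of 12 fibroblast and stellate markers 7 were tested, with 1 lower, Dcn, and 1 higher, Pdgfrb. Over all tested genes 11.8% were called lower and 7.33% higher. Lum and Lrat had 0 counts everywhere and 5 markers had 0 counts in the library labelled 3H3P. The summed TPM of these markers was 107 in that library, 89.2 and 139 in subclones 6 and 8, and 30.6 to 55.6 in the other subclones. Different genes carried these sums: Dcn made up 105.5 TPM in the library labelled 3H3P and at most 0.07 in a subclone, where Pdgfrb ran from 26.1 to 40.2 TPM and Pdgfra from 0.90 to 92.8 TPM. The part of macrophage or fibroblast RNA in the Apoe counts was not tested.

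Other genes of lipoprotein metabolism were read from 5 lists by role, with 134 genes in all and 97 tested by edgeR. Of these 22 were lower in the subclones and 4 higher, which is 22.7% and 4.12% of those tested, against 11.8% and 7.33% of all tested genes. By list, 33.3% of tested genes were lower among other apolipoproteins, 25.8% in assembly and secretion and 33.3% among regulators. In plasma remodelling 9.09% were lower, and among receptors and efflux genes 5.00%. Higher calls were 10.0% of tested receptor and efflux genes and 7.41% of regulators, and 0% elsewhere. The median log2 change was −0.32 over the 97 genes and 0.03 over all 14634.

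**Figure D4:**
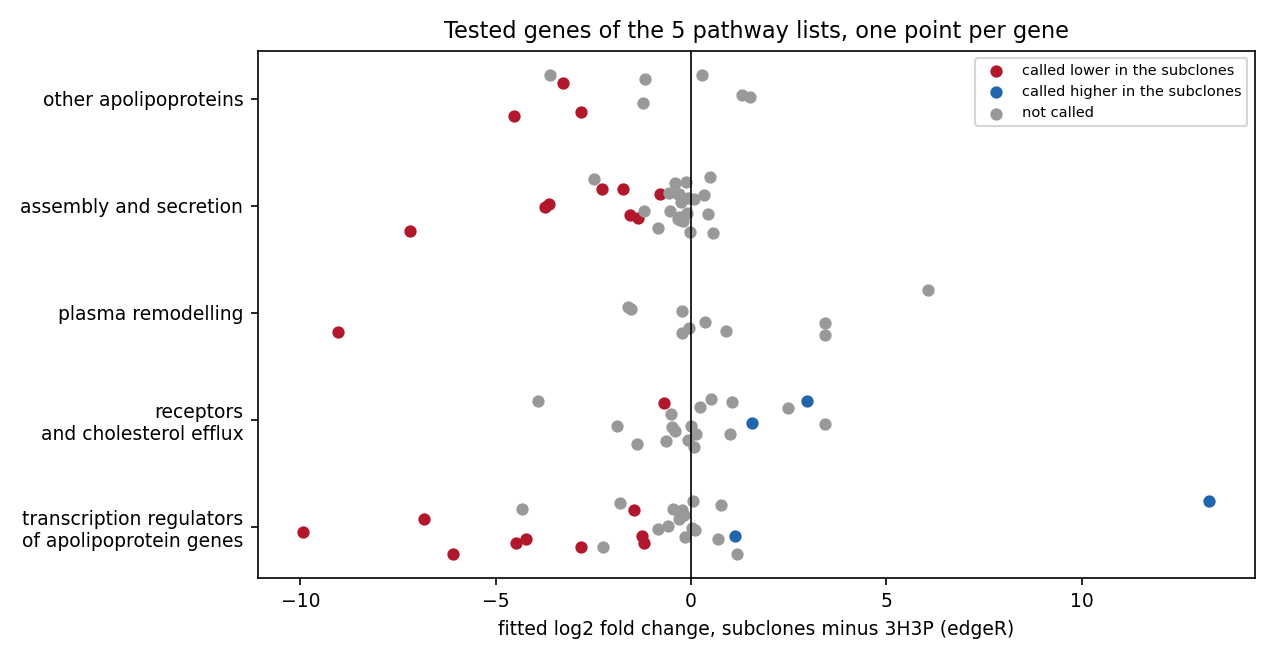
Fitted log2 fold change of each tested gene in the 5 lists, subclones minus the library labelled 3H3P, by edgeR. Called genes are coloured, 22 lower and 4 higher, and Foxa1 and Onecut1 lie at the 2 ends of the regulator row, where fitted values of genes with 0 counts in a group are no bound.

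Among 24 other apolipoprotein and high-density lipoprotein genes 9 were tested, with 3 lower and 0 higher. Clu, encoding clusterin or apolipoprotein J, was at 1122 CPM and fell to 116 ± 20.2 CPM, with a log2 change of −3.28 and an SE of 0.20 (edgeR adjusted p = 6.57e-05). Pon3, for a paraoxonase carried on high-density lipoproteins, fell from 40.1 to 5.70 ± 1.33 CPM, and Apol7a from 2.61 to 0.108 ± 0.0983 CPM. Clu thus moved in the direction of Apob and was still well expressed in every subclone.

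The serum amyloid A genes Saa3 and Saa2, acute phase proteins that bind high-density lipoproteins, varied over the subclones without passing the test. Saa3 reached 1193 CPM in the library labelled 3H3P, against 40.0, 8.43, 199, 1151, 159, 1895 and 221 CPM in subclones 1, 2, 3, 6, 7, 8 and 9 (edgeR adjusted p = 0.679). Like Apoe, Saa3 was highest in subclones 6 and 8 and lowest in subclone 2. Unlike Apoe, it was high in the library labelled 3H3P. The Saa, Apol7 and Ces1 genes have close copies, so their counts rest on how RSEM divided shared reads.

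Of 38 assembly and secretion genes 31 were tested, with 8 lower and 0 higher. Lipa, for lysosomal acid lipase, was at 139 CPM and fell to 41.6 ± 4.50 CPM, with a log2 change of −1.74 and an SE of 0.17 (edgeR adjusted p = 0.000365). Plin2, the coat protein of lipid droplets, fell from 147 to 50.2 ± 5.37 CPM, and Acsl1, which activates long-chain fatty acids, from 68.1 to 26.6 ± 4.28 CPM. Sec24a, for a cargo adaptor of the vesicles that leave the endoplasmic reticulum, fell by 0.81 on the log2 scale, a call lost without subclone 3 and on log2 TPM (adjusted p up to 0.0760). The remaining 4 were Cideb, Mogat2, Ces1d and Sort1. Each lost its call under at least 3 alternatives, including without subclone 3, with adjusted p of up to 0.131, 0.108, 0.355 and 0.0951. P4hb, which encodes the partner subunit of the transfer protein, was at 1028 against 767 ± 210 CPM (edgeR adjusted p = 0.434). Hspa5, an endoplasmic reticulum chaperone, was at 1179 against 957 ± 453 CPM (adjusted p = 0.737).

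In the plasma remodelling list 11 of 15 genes were tested, with 1 lower and 0 higher. Lpl, encoding lipoprotein lipase, had 69 counts in the library labelled 3H3P, against 0 in every subclone, at least 153-fold lower against a floor of 3 counts over the group (edgeR adjusted p = 0.0176). Furin, for a protease of the secretory pathway, was at 253 against 216 ± 38.3 CPM (edgeR adjusted p = 0.562).

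Among 25 receptor and efflux genes 20 were tested, with 1 lower and 2 higher. Lrp8, encoding an apolipoprotein E receptor, was at 13.9 CPM and rose to 40.7 ± 9.19 CPM, with a log2 change of 1.55 and an SE of 0.36 (edgeR adjusted p = 0.0181). Stab1, for a scavenger receptor, rose from 2.55 to 20.2 ± 8.43 CPM (adjusted p = 0.0314), a call lost with limma-voom and on log2 TPM (adjusted p up to 0.132). Sdc1, for the proteoglycan syndecan-1 that binds remnant particles, fell from 288 to 178 ± 13.1 CPM (adjusted p = 0.0114). The large receptor gene Lrp1 was at 374 against 281 ± 166 CPM (adjusted p = 0.706), and its relative Lrp6 at 143 against 167 ± 16.7 CPM (adjusted p = 0.410). The receptor genes were thus expressed in both groups, in contrast to their ligand gene Apob.

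Regulators of apolipoprotein genes were lower in 9 of 27 tested members and higher in 2, out of 33 listed. Foxa2, a pioneer factor of liver, was at 80.8 CPM and fell to 0.689 ± 0.577 CPM, with a log2 change of −6.83 and an SE of 0.80 (edgeR adjusted p = 0.000817). Hnf4a, a nuclear receptor that drives many hepatocyte genes, was at 54.2 CPM and fell to 0.788 ± 1.23 CPM, with a log2 change of −6.09 and an SE of 1.03 (adjusted p = 0.00462). Onecut2 rose from 152 to 333 ± 39.6 CPM (adjusted p = 0.00699).

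Other members of these families, named after their values were seen, went in both directions. Onecut1 had 127 counts in the library labelled 3H3P, against 0 in every subclone, at least 281-fold lower (edgeR adjusted p = 0.0110). Foxa1 had 0 counts in the library labelled 3H3P, against 7.86 to 161 CPM in subclones. With counts pooled over the subclones and a floor of 3 counts in that library, it was at least 447-fold higher (adjusted p = 0.0210 by edgeR), and limma-voom did not call it (adjusted p = 0.453). Nr1h3, Pparg, Ppargc1a and Esrra were also called lower. Of these Ppargc1a lost its call without subclone 1, 3, 6, 8 or 9 and on log2(TPM + 0.1) (adjusted p up to 0.0743). Pparg lost its call on log2(TPM + 0.1) (adjusted p = 0.0976). The widely expressed factor genes Srebf2 and Cebpb did not pass, at 355 against 317 ± 57.5 CPM and 134 against 216 ± 56.8 CPM (edgeR adjusted p = 0.692 and 0.184).

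Hnf4a and Foxa2, set beside Apob after their values were seen, had their extremes in the same subclones as Apob. In subclones 1, 2, 3, 6, 7, 8 and 9 Hnf4a had 7, 11, 8, 3, 2, 1 and 51 counts and Foxa2 16, 12, 20, 4, 2, 0 and 23. Subclone 9 was highest and subclone 8 lowest for Apob, Hnf4a and Foxa2 alike. Other regulators had theirs elsewhere: Foxa1 was highest in subclone 1, Onecut2 in subclone 2 and Ppargc1a in subclone 7. Even in subclone 9 Apob at 7.06 CPM and Hnf4a at 3.53 CPM remained far below the 586 and 54.2 CPM of the library labelled 3H3P.

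**Figure D5:**
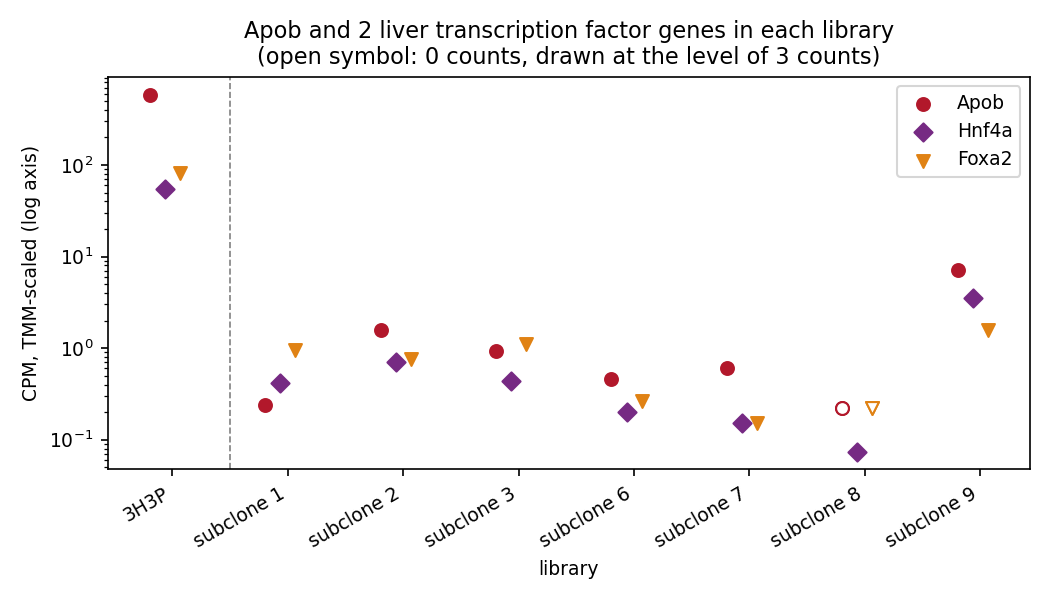
TMM-scaled CPM (log axis) of Apob, Hnf4a and Foxa2 in each library, 1 point per gene and library, offset sideways for legibility. All 3 genes are highest in the library labelled 3H3P and, among the subclones, highest in subclone 9.

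The RefSeq table holds promoters of 8 members, Apoc1 and Apoc3 being the exceptions. The 250 bases before each start were searched on both strands for motifs of HNF4, HNF1, FOXA, C/EBP and LXR. A nuclear receptor direct repeat and the TATA box were also searched, whereas motifs of other listed factors, such as Onecut2 and Srebf2, were not. The FOXA motifs were TGTTTAC and TGTTTGC, present in 3.17% and 4.30% of the 32851 promoter windows in the table. In the stretches printed at the start, Apob holds TGTTTGC on the reverse strand, beginning 121 bases before the RefSeq start, and TATAAA at 60 bases (in 12.4% of windows). Apoe holds none of the motifs searched at its first RefSeq start, the one printed, and TATAAA on both strands at its second start, 96 and 100 bases before it. Apoa2 and Apoh hold TGTTTAC, 77 and 71 bases before the start, Apoa2 also TATAAA at 212 bases, and Apoa1 holds TGTTTGC at 88 and at 75 bases. The windows of Mttp, Apoa4 and Apom hold none, and GENCODE exons cover 250, 148 and 249 of their bases.

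The letters CAAAGTCCA (HNF4) and TTGCNNCAA and TTGCNNAAT (C/EBP) were found in none of the 8 members' windows. The HNF1 motifs and the direct repeats of nuclear receptors and of LXR were not found either. Each of these motifs is rare, in 0.00913% to 2.11% of all windows. Only exact letters were matched, so a miss does not show that a binding site is absent. The window of Mttp, of which all 250 bases lie in GENCODE exons, had a GC content of 61.2% and 25 CG pairs. Over all windows the medians were 52.4% and 6. The window of Apob had 55.2% and 7, and that of Apoe at its first start 57.2% and 8. A relation of base composition to expression was not tested.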

How the data were processed

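The submitters' processing notes name STAR, RSEM, FastQC and DESeq2 and the GRCm38 (mm10) build, and their versions and options are not known here. The authors deposited, per the file headers, an expected count (RSEM's estimate, which divides shared reads between genes), a TPM value and an FPKM value per gene. FPKM deposited by the authors was not used. Libraries came from total RNA with a directional kit, per the labels' protocols.

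Expected counts were rounded and fitted over all genes with edgeR 4.0.16 (R 4.3.3; filterByExpr by group, TMM, glmQLFit and glmQLFTest), with Benjamini-Hochberg adjustment over 14634 genes and calls at an adjusted p under 0.05. With 1 library of 3H3P the spread came from the 7 subclones (6 residual degrees of freedom), on the assumption that a repeat of 3H3P would vary like a subclone. The labels do not describe repeat cultures, so the spread used in the tests mixes differences between isolates with those between cultures and library preparations. SE is the log2 change divided by the square root of F. DESeq2 1.42.0 and limma 3.58.1 were alternatives. The fit was tested on simulated data of 1 against 7 libraries. It called 16% of 2-fold, 64% of 4-fold, 70% of 8-fold and 92% of 16-fold changes, and 6 unchanged genes. Most changes of 2-fold were thus missed. Changes were planted only in genes above a minimum expected count, and the simulated 3H3P library was given the spread of the subclones. The shares called therefore do not apply to genes with few counts. Positions are from GENCODE vM21, promoters from RefSeq GRCm38.p6.

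Named genes were all 10 members, up to 4 called genes of smallest p and 2 uncalled genes of highest CPM per list, coding genes within 50 kb of the 2 clusters, and the 3 genes closest in pattern to each expressed member. The members and lists were chosen with earlier results of these data known. Some genes that the rule names are not reported here.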

Additional observations from a re-analysis of the deposited data

Results flagged for a closer look

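In 6 cases 1 subclone stood apart from the other 6 on the CPM scale, its gap to the nearest subclone as a share of the whole range being above Dixon's 95% critical value for 7 samples. This was looked at for 36 genes. The critical value flags about 1 in 20 groups of normally distributed values, and CPM is often skewed towards high values. In every case flagged the value apart was the highest, so the number of flags cannot be compared with that rate. Apob was at 7.06 CPM in subclone 9, where the next was at 1.60 CPM. Hnf4a was at 3.53 CPM in subclone 9, next 0.703 CPM. Acsl1 was at 35.1 CPM in subclone 9, next 28.0 CPM. Ppargc1a was at 10.5 CPM in subclone 7, next 2.08 CPM. Cebpb was at 341 CPM in subclone 8, next 215 CPM. Onecut2 was at 411 CPM in subclone 2, next 337 CPM. Subclone 9 accounts for 3 of the 6, among them Apob and Hnf4a, and no cause was tested.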

How the results depend on the processing

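Under all 15 alternatives Apob was called lower, with log2 changes of −9.86 to −6.24, and Mttp was not called. With DESeq2 the count of members called higher went from 0 to 1, which was Apoe, and with limma-voom the count of list genes called higher went from 4 to 2. The cause was not tested. Leaving out each subclone in turn gave 1 member lower, 0 higher, 16 to 24 list genes lower, 4 to 6 higher, and 1991 to 2985 genes called in all, against 2799. Of called genes 38.3% were higher, with a range over the alternatives from 29.97% with limma-voom to 50.3% on log2(TPM + 0.1), by way of 33.6% without subclone 3 and 49.1% with DESeq2. Apob's SD over the subclones was 1.81, 2.39 with a prior count of 0.5 and 0.44 on log2(TPM + 1). Apol7a, Lpl, Cideb and Ces1d had no value under the stricter filter, a mean of at least 10 counts over the 8 libraries, which they did not reach. No paired analysis was possible because the label of the 3H3P library carries no replicate number. Depth limits Apoa1, Apoa4, Apoc1, Apoc3, Apoh and Apom, each at 6 counts or fewer over all libraries.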
